A study of Macaca mulatta with 22 samples.

Results

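Small GTPases are molecular switches that are active when bound to GTP and inactive when bound to GDP. Guanine nucleotide exchange factors (GEFs) load them with GTP, and GTPase-activating proteins (GAPs) speed the hydrolysis that turns them off. In neurons the branch of RhoA, Rac and Cdc42 shapes the actin of growth cones and dendritic spines, the Ras, Rap and Ral branch carries receptor signals and controls adhesion and exocytosis, the Rab branch directs vesicle and endosome traffic, and the Arf branch controls coat formation and membrane remodelling. N6-methyladenosine (m6A) is an abundant internal modification of mRNA, often found in long exons and near stop codons. The set described here comprises every gene with an m6A peak whose symbol begins with ARHGAP, ARHGEF, DOCK, RAPGEF, RASGRP, RASA, RALGAP, SIPA1, TBC1D, AGAP or ASAP, or with RAB and a digit. It held 63 of the 3671 genes with a peak and 169 of the 10069 peaks.

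The peaks come from m6A immunoprecipitation and sequencing of fragmented RNA from the prefrontal cortex of infant rhesus macaques at postnatal day 35. The 5 sevoflurane (SEV) animals, males D and S1 and females F, S2 and S3, had breathed this general anaesthetic at about 2.5 to 3% on approximate days 7, 21 and 35 of life, for 4 h each time. The 6 control (Ctrl) animals were males A and B and females C, C1, C2 and C3, and the labels do not say what gas or handling they received. There was 1 peak list per animal, each animal is a separate replicate, and strain and genotype are not given in the labels. The lists carry no read counts, so depth is unknown, and RNA levels were not analysed here. A peak present in some animals and not in others may therefore differ in modification, in transcript level or in detection, and these cannot be told apart. In such bulk tissue, fewer cells of a type and less RNA per cell cannot be told apart either.

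The lists held 1217 ± 295 peaks in SEV animals and 664 ± 282 in Ctrl animals (SD, n = 5 and 6). The SEV lists were 1.90 times as long by the ratio of geometric means (two-sided exact permutation test over all relabellings, p = 0.0152). Within females p was 0.0857, and within males it was 0.333, the smallest value that 2 against 2 allows. Between animals named by a letter alone p was 0.10, also the smallest possible, and between animals with numbered names it was 0.20. The control C3 stood apart from the other 5 controls with 1210 peaks. Of 30 marker genes of cortical cell types, 10 had a peak. They were 5 of 11 for neurons, where NEFM had a peak in all 11 animals and RBFOX3 in 3 of 5 SEV and 4 of 6 Ctrl, and 0 of 3 for endothelium. Of the precursor markers 1 of 2 had one, PDGFRA, in 3 of 5 SEV and 0 of 6 Ctrl animals. The neuronal marker SYT1 had one in 0 of 5 SEV and 2 of 6 Ctrl animals. The astrocyte marker SLC1A3 and the microglial marker CX3CR1 each had one in 1 Ctrl animal and 0 SEV animals. NEFL and the oligodendrocyte marker MBP each had one in 1 SEV animal alone. CAMK2A had one in 2 animals of each group, and the oligodendrocyte marker CNP in 3 of each. The number of neuronal markers with a peak was 2.2 ± 1.10 per SEV animal and 2.33 ± 1.21 per Ctrl animal. The part that list length and cell makeup play in the counts below was not tested, apart from the settings named.

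More genes of the set carried a peak in each SEV animal than in 5 of the 6 controls. They numbered 24 in D, 20 in F, 16 in S1, 25 in S2 and 19 in S3, against 5 in A, 8 in B, 7 in C, 4 in C1, 9 in C2 and 17 in C3. The means were 20.8 ± 3.70 per SEV animal and 8.33 ± 4.63 per Ctrl animal, and the groups overlapped only through S1 and C3. All genes with a peak averaged 1043 per SEV animal and 601 per Ctrl animal, which also stands behind the counts by role below. As a share of the animal's genes with a peak, the set took 2.41% in D, 1.95% in F, 2.18% in S1, 1.85% in S2 and 1.71% in S3. In the controls it took 0.896% in A, 1.61% in B, 1.56% in C, 0.983% in C1, 1.40% in C2 and 1.62% in C3. Every SEV share lay above every Ctrl share (means 2.02 ± 0.278% and 1.34 ± 0.324%). These shares are a description without a test. With all lists cut to the 452 peaks of lowest p-value, the shares ranged from 1.01 to 2.93% in SEV animals and from 0.957 to 1.66% in Ctrl animals and overlapped, and the numbers of genes were 8.2 ± 3.03 and 5.67 ± 1.37.

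**Figure D1:**
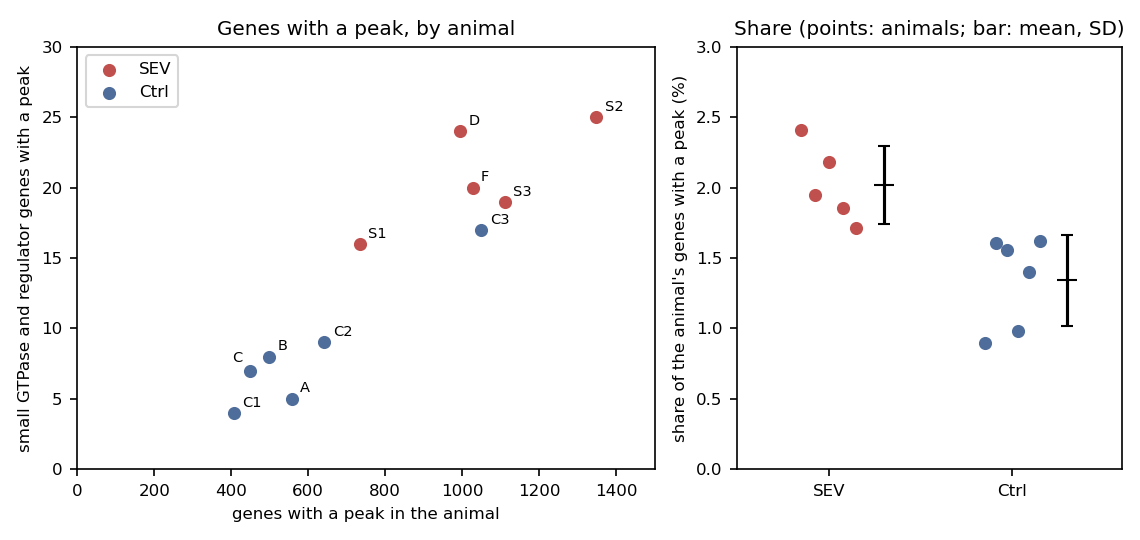
Left, the number of small GTPase and regulator genes with a peak (vertical) against all genes with a peak (horizontal) in each of 5 SEV and 6 Ctrl animals. Right, the same as a share of the animal's genes with a peak, with mean and SD; C3 sits among the SEV animals on the left, with 17 genes, and among the Ctrl animals on the right, at 1.62%.

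No gene of the set passed a test of how many animals in each group carried a peak, and few could have. Of the 63 genes, 33 had a peak in 2 to 9 animals and were tested with a two-sided Fisher's exact test within a test of all 1486 such genes. Of the others, 29 had a peak in 1 animal (46.0% of the set, against 55.9% of all genes with a peak), and ARHGAP35 had one in 10. With 5 against 6 animals, an unadjusted p under 0.05 is possible only for a peak in 4 to 7 animals: the smallest possible p is 0.182 for 2 or 9 animals and 0.0606 for 3 or 8. Only 9 of the 33 genes lay in that range, namely AGAP1, RAB11FIP3, RAB11FIP4, RAB13, RAB21, RAB5A, RAB8A, RAPGEFL1 and TBC1D10B, and the outcome of the other 24 was fixed by their totals. None of the 9, and hence none of the 33, had a p under 0.05 in either direction, and none had an adjusted p under 0.05 (Benjamini-Hochberg, smallest 0.606). Over all tested genes, 1.82% (6.28% of the 430 in 4 to 7 animals) had a p under 0.05 with a peak more often after sevoflurane, 0% with a peak more often in controls, and 0% had an adjusted p under 0.05. The peak was more frequent in SEV animals in 28 of the 33 genes (84.8%) and in 83.2% of all tested genes. The median difference in the share of animals, SEV minus Ctrl, was 40 percentage points in the 33 genes and 23.3 over all tested genes. In a fit that gave each animal its own odds factor to allow for the length of its list, 22 of the 33 genes (66.7%) and 52.1% of all tested genes were on the SEV side, and 0 of the 33 had a p under 0.05. Over all 1486 genes that fit gave 4 calls on the SEV side and 14 on the Ctrl side, against 27 and 0 without it. The factors were fitted to the same tested genes, so they also take up any difference that all genes of a group share. The fit therefore cannot separate list length from a treatment difference common to all genes.

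The unadjusted calls turned on single animals. Without C3, 3 of 32 tested genes had a p of 0.0476, namely RAB11FIP4, RAB13 and RAPGEFL1, each with a peak in 4 of 5 SEV animals and 0 of the other 5 controls. Over all tested genes 4.28% then had a p under 0.05 in that direction. Without D the call was RAB11FIP4, beside 3.94% of all tested genes, and without F it was ARHGEF25, beside 4.02%. Without S1 there were 3 calls, AGAP2, ARHGEF25 and RAB13, beside 6.02%. Without S2 there were 2, RAB11FIP2 and RAPGEFL1, beside 3.57%, and without S3 also 2, AGAP2 and RAB11FIP2, beside 5.1%. Each of these calls arose where the animal left out was a SEV animal without the peak or the sole control with it. No adjusted p of the set was under 0.05 in any of these, and leaving out A, B, C, C1 or C2 gave 0 calls.

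By group, 35 of the 63 genes had peaks in SEV animals alone (55.6%, against 44.9% of all genes with a peak), 10 in Ctrl animals alone (15.9%, against 22.8%) and 18 in both (28.6%, against 32.2%). Most of those confined to one group rested on 1 animal: 15 of the 35 and 1 of the 10 were found in 2 or more animals. No gene of the set had a peak in all 11 animals, whereas 81 genes overall did.

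**Figure D2:**
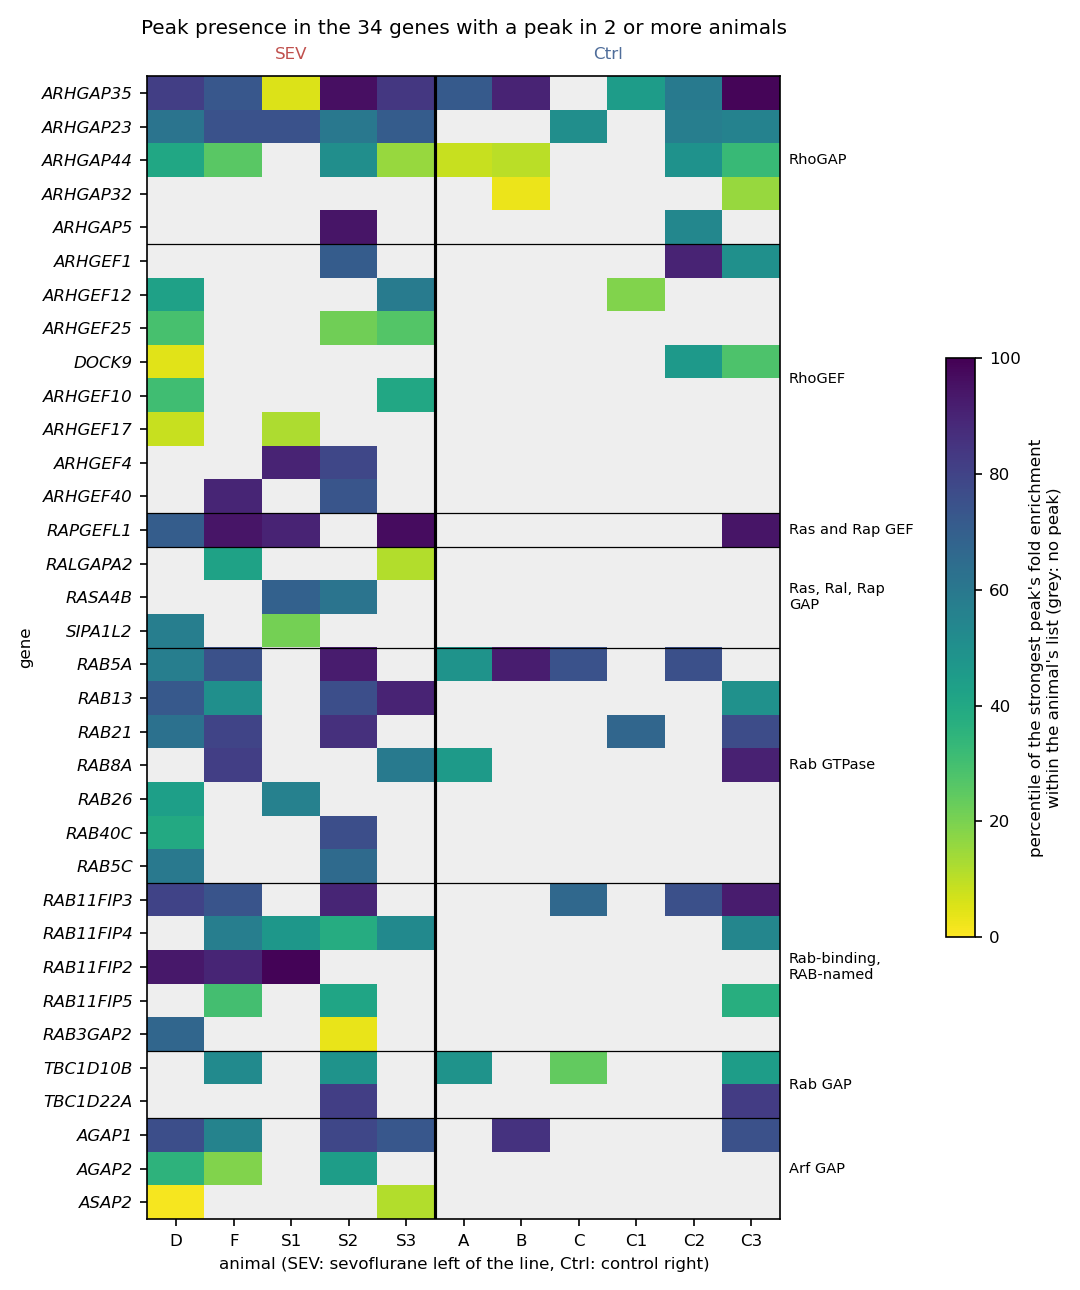
Rows are the 34 genes with a peak in 2 or more animals, grouped by role, and columns are animals, SEV left of the line and Ctrl right. Colour gives the percentile of the gene's strongest peak by fold enrichment within that animal's list, and grey means no peak; ARHGAP35 fills 10 of 11 columns, and 15 rows are grey in all 6 Ctrl columns.

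The values given for single peaks are the authors' fold enrichment, a ratio per peak, and its percentile within the animal's own list. They describe a peak inside its list, and ranks from lists of different length show no change between groups. A region merges peaks from any animals that overlap by 1 or more exonic bases on one strand. Coordinates are on the rheMac8 assembly.

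RhoGAPs, which switch RhoA, Rac and Cdc42 off, supplied the peaks found in most animals. Of 10 such genes, 3 had peaks in SEV animals alone, 3 in Ctrl animals alone and 4 in both. The shares over all genes with a peak were 44.9%, 22.8% and 32.2%. Those tested had a peak in 2 or 8 animals, where no p under 0.05 is possible. Each SEV animal had 3.6 ± 0.548 of them and each Ctrl animal 2.83 ± 1.72, and the ranges overlapped.

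ARHGAP35, a GAP for RhoA that acts in axon outgrowth and guidance, had a peak in 5 of 5 SEV and 5 of 6 Ctrl animals. Its strongest peak had a fold enrichment of 23.5 in D, 14.8 in F, 2.68 in S1, 42.6 in S2 and 18.6 in S3, against 16.9 in A, 38.9 in B, 5.01 in C1, 9.46 in C2 and 52.8 in C3. C was the animal without one, and the folds of the groups overlapped over almost their whole range. The main region, chr19:42363629-42363929 on the plus strand, was found in 4 SEV and 5 Ctrl animals and lay 96.6% of the way along the gene. Another region, chr19:42366058-42366448, lay further towards the 3′ end, at 99.1%, in F, S1 and S2 and in no control (Fisher's exact test, p = 0.0606, adjusted p = 0.610). S1 had that region alone.

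ARHGAP23, a less studied RhoGAP, had a peak in 5 of 5 SEV and 3 of 6 Ctrl animals (Fisher's exact p = 0.182, adjusted p = 0.606). The fold was 9.02 in D, 17.0 in F, 12.8 in S1, 7.10 in S2 and 9.71 in S3, against 7.19 in C, 8.92 in C2 and 6.41 in C3. Its percentile within the list reached 74.9 in the SEV animals, each of which lay above the 3 controls with a peak, at 50.6 to 57.3. All 8 animals shared one region, chr16:44196190-44196578, at 98.7% of the gene.

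ARHGAP44, a GAP for Rac and Cdc42 known from dendritic spines, had a peak in 4 of 5 SEV animals (not S1) and 4 of 6 Ctrl animals (not C or C1). These were among the weaker peaks of their lists, with folds of 2.91 to 5.59 in SEV and 2.99 to 7.09 in Ctrl animals. The shared region, chr16:13079164-13079402, held the peaks of 3 SEV and 4 Ctrl animals. F had a peak elsewhere in the gene, which overlapped a peak assigned to another gene. ARHGAP32, a neuronal GAP of the postsynaptic density, had peaks in controls alone, with a fold of 2.57 in B and 2.82 in C3, at separate places. ARHGAP10 had a peak of 5.38-fold in S1 and ARHGAP26 one of 3.03-fold in F, each in that animal alone.

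RhoGEFs, counted here with the DOCK family, load RhoA, Rac and Cdc42 with GTP. Of 13 genes with a peak, 8 had peaks in SEV animals alone, 2 in Ctrl animals alone and 3 in both. Over all genes with a peak, 44.9% were in SEV animals alone and 22.8% in Ctrl animals alone. Each SEV animal had 3.6 ± 1.14 of them, a range of 2 to 5, and each Ctrl animal had 1.17 ± 0.983, a range of 0 to 2. The 8 tested had a peak in 2 or 3 animals, where no p under 0.05 is possible. ARHGEF25, a RhoA exchange factor driven by Gq-coupled receptors, had peaks in 3 of 5 SEV and 0 of 6 Ctrl animals (Fisher's exact p = 0.0606, adjusted p = 0.606). The fold was 3.85 in D, 3.19 in S2 and 3.36 in S3, at the 29.1st, 21.7th and 26.9th percentiles of those lists. D and S2 shared a region at chr11:56411979-56412583, while the 2 peaks of S3 lay elsewhere in the gene.

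Of the other RhoGEFs in SEV animals alone, ARHGEF10 had a fold of 3.96 in D and 4.13 in S3, and ARHGEF17 had 2.58 in D and 3.18 in S1. ARHGEF4, which binds the tumour suppressor APC, had 35.9 in S1 and 14.9 in S2, and ARHGEF40 had 29.5 in F and 11.7 in S2. In each of these 4 genes the 2 animals had their peaks in different places, so no single site was seen more than once. ARHGEF12, an exchange factor that relays signals of G protein-coupled receptors to RhoA, had a shared region in D, S3 and C1. The related ARHGEF1 had one in S2, C2 and C3. DOCK9, an exchange factor for Cdc42, had a peak in D and in the controls C2 and C3.

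Exchange factors for Ras and Rap carried some of the strongest peaks of the set. Of 5 genes, 3 had peaks in SEV animals alone, 1 in a Ctrl animal alone and 1 in both, and 1 was tested. Over all genes with a peak, 44.9% were in SEV animals alone and 22.8% in Ctrl animals alone. RAPGEFL1, named for its similarity to the Rap exchange factors, had a peak in 4 of 5 SEV animals and 1 of 6 Ctrl animals (Fisher's exact p = 0.0801, adjusted p = 0.606). The fold was 13.2 in D, 38.6 in F, 35.9 in S1 and 55.9 in S3, against 30.2 in C3. The SEV animal S2, with the longest list of all, had none. All 5 animals shared chr16:45993422-45993629 on the plus strand, 5.81% of the way along the gene. The remaining Rap exchange factors rested on 1 SEV animal each: RAPGEF2 with a fold of 2.59 in D, RAPGEF3 (EPAC1), which cAMP activates, with 6.74 in S2, and RAPGEF6 with 25 in F. RASGRP1, a Ras exchange factor that responds to diacylglycerol and calcium, had a peak in C alone.

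GAPs of Ras, Ral and Rap were seen in SEV animals alone. All 5 genes had peaks there: 2 genes in each of D, S1 and S2, and 1 gene in each of F and S3, against 0 in each of the 6 controls. Of all genes with a peak, 44.9% were likewise in SEV animals alone, and each of these 5 rested on 1 or 2 animals. Of the 5, 3 had a peak in 2 SEV animals each and were at the smallest p that 2 animals allow (Fisher's exact p = 0.182), so the test says nothing of them. RASA1, the prototype Ras GAP, had a fold of 33.0 in D alone. RALGAPA2, a catalytic subunit of the Ral GAP complex, had 5.19 in F and 2.80 in S3. SIPA1L2, a Rap GAP of the spine-associated family, had 7.70 in D and 3.63 in S1. RASA4B, a calcium-responsive Ras GAP, had 10.5 in S1 and 7.45 in S2, and since near-identical RASA4 copies exist its identity is uncertain. RASAL1, a Ras GAP with lipid-binding domains, had 2 peaks in S2 alone, at 6.39 and 2.88-fold. None of the 9 peaks of these GAPs lay in the last 20% of its gene, and no site was shared by 2 animals.

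**Figure D3:**
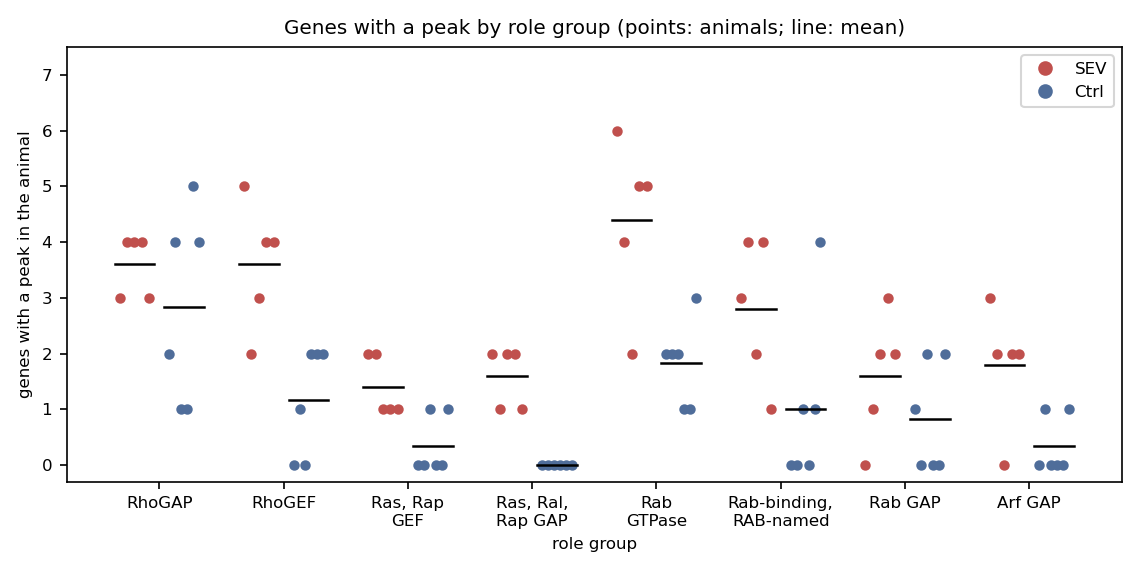
The number of genes with a peak in each animal, by role group, SEV left of Ctrl in each pair, with the mean as a line. The Ras, Ral and Rap GAPs are at 0 in all 6 Ctrl animals and at 1 or 2 in the SEV animals, while the RhoGAPs overlap. Of all genes with a peak, 44.9% were in SEV animals alone.

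Rab GTPases themselves, the switches that give vesicles and endosomes their identity, numbered 13 genes. Of these, 7 had peaks in SEV animals alone, 2 in Ctrl animals alone and 4 in both, and 0 of the 4 that could have reached a p under 0.05 did so. Over all genes with a peak, 44.9% were in SEV animals alone and 22.8% in Ctrl animals alone. SEV animals had 4.4 ± 1.52 of them and Ctrl animals 1.83 ± 0.753. RAB5A, which controls fusion of early endosomes, was the most widespread, in 3 of 5 SEV and 4 of 6 Ctrl animals. Its fold was 7.70 in D, 17.6 in F and 31.9 in S2, against 7.22 in A, 42.4 in B, 24.0 in C and 18.9 in C2, so the groups overlapped throughout. All 7 animals shared chr2:178050507-178050805 on the minus strand, within the first 1% of the gene at 0.444%.

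RAB13, a Rab of epithelial junctions and neurite outgrowth, had a peak in 4 of 5 SEV animals and 1 of 6 Ctrl animals (Fisher's exact p = 0.0801, adjusted p = 0.606). The fold was 13.9 in D, 6.24 in F, 12.8 in S2 and 31.4 in S3, against 5.39 in C3, the lowest of the 5. They shared chr1:128580778-128581253 on the minus strand, at 91.2% of the gene. RAB21, which acts in integrin endocytosis, had peaks at the 5′ end in D, F and S2 and in the controls C1 and C3. RAB8A, which directs vesicles to the plasma membrane, had peaks in F and S3 and in the controls A and C3. Those of S3, A and C3 shared chr19:16047479-16054148, and that of F lay elsewhere in the gene. RAB5C had 8.25 in D and 8.52 in S2 in one region, chr16:47965723-47965872, but the peak tables give that gene identifier the symbol KAT2A, so its name is uncertain. RAB26 had 5.32 in D and 6.84 in S1, and RAB40C 4.67 in D and 12.8 in S2, each at 2 places. RAB3A and RAB3C, Rabs of synaptic vesicles, each had a peak in S3 alone, and the annotation column gave the RAB3A peak to another gene, TSPAN16.

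The RAB11FIP proteins tie RAB11 to recycling endosomes, which return receptors to the surface of dendrites. RAB11FIP2 had a peak in 3 of 5 SEV and 0 of 6 Ctrl animals (Fisher's exact p = 0.0606, adjusted p = 0.606). Its fold of 39.6 in D, 29.5 in F and 83.7 in S1 placed it at the 93.5th, 89.8th and 99.1st percentiles, and 83.7 was the highest fold of the set. The shared region, chr9:113947968-113948208 on the minus strand, lay at 0.399% of the gene. RAB11FIP4 had a peak in 4 of 5 SEV animals and 1 of 6 Ctrl animals (Fisher's exact p = 0.0801, adjusted p = 0.606), with a fold of 7.56 in F, 5.55 in S1, 4.26 in S2 and 5.40 in S3, against 6.03 in C3. All 5 shared chr16:25623460-25623669, at 97.5% of the gene, and the C3 value lay among the SEV values.

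RAB11FIP3 was found in 3 animals of each group. It had a peak in D, F and S2, at 15.9 to 27.7-fold, and in C, C2 and C3, at 13.0 to 25.6-fold, all in chr20:504305-504545 near the 3′ end. The strongest peak of RAB11FIP5 was 4.16-fold in F and 4.56-fold in S2, against 4.09-fold in C3, at 3 different places. In the one region that S2 and C3 shared, the fold was 2.41 in S2 and 4.09 in C3. Of the complex that inactivates RAB3, RAB3GAP2 had 11 in D and 2.37 in S2 at separate places, and RAB3GAP1 had a peak in C3 alone. Over the 6 RAB-named binding proteins and regulators, SEV animals had 2.8 ± 1.30 genes with a peak and Ctrl animals 1 ± 1.55, and C3 alone held 4 of the controls' 6 occurrences.

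**Figure D4:**
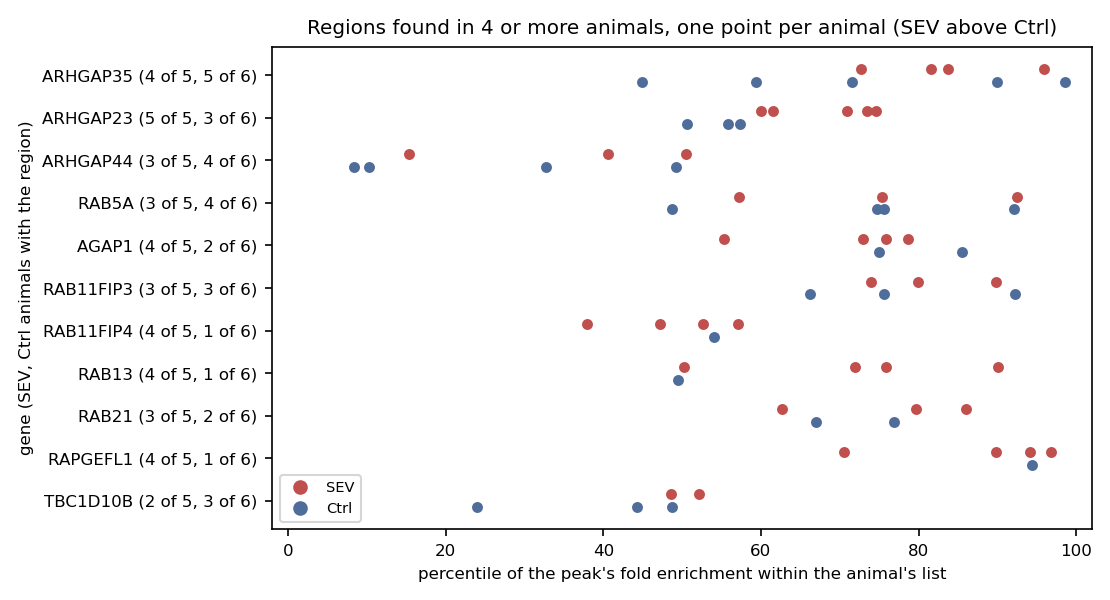
The 11 regions found in 4 or more animals, with the percentile of the peak's fold enrichment within each animal's list (horizontal), 1 point per animal, SEV above Ctrl. RAPGEFL1 points lie above the 70th percentile, and ARHGAP44 points at or below 50.5.

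The genes of the TBC1D proteins, GAPs for Rabs, mostly had a peak in 1 animal. This held for 6 of 8 genes, beside 55.9% of all genes with a peak. By group, 5 had peaks in SEV animals alone, 1 in a Ctrl animal alone and 2 in both. Over all genes with a peak, 44.9% were in SEV animals alone and 22.8% in Ctrl animals alone. TBC1D10B had one in F and S2 and in the controls A, C and C3, all in chr20:27953791-27954048 near the 3′ end, and TBC1D22A had one in S2 and C3. Genes with a peak in 1 SEV animal included TBC1D14, an autophagy regulator, at 3.31-fold in S3, TBC1D19 at 31.4-fold in S3, TBC1D5, which acts with retromer, at 4.78-fold in S1, and TBC1D24, a gene of inherited epilepsies, at 10.3-fold in S1. TBC1D10B, the one that could have reached a p under 0.05, had a p of 1 by Fisher's exact test.

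All 3 Arf GAPs of the set had a peak in a larger share of SEV animals, as did 83.2% of all tested genes. AGAP1, the one that could have reached a p under 0.05, did not. AGAP1, which regulates endosomal AP-3 traffic, had a peak in 4 of 5 SEV and 2 of 6 Ctrl animals (Fisher's exact p = 0.242, adjusted p = 0.635). The fold was 18.1 in D, 7.26 in F, 14.9 in S2 and 10.5 in S3, against 31.8 in B and 13.6 in C3, and all 6 shared chr12:118830790-118831029, at 99.8% of the gene. AGAP2, which also enhances phosphoinositide 3-kinase signalling in neurons, had a peak in 3 of 5 SEV and 0 of 6 Ctrl animals (Fisher's exact p = 0.0606, adjusted p = 0.606). Its fold was 4.34 in D, 3.25 in F and 4.88 in S2, in one region, chr11:56543466-56543607 on the minus strand. ASAP2 had 2.26 in D and 2.80 in S3, at separate places.

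A gene seen in several animals did not always carry the same site. Of the 34 genes with a peak in 2 or more animals, 21 had a region shared by at least 2. The 63 genes held 93 regions, of which 69 belonged to 1 animal. In 2 to 9 animals were 24 of the 93, beside 1265 of all 5155 regions. Of the 24 tested regions, 9 were in 4 to 7 animals and could have reached a p under 0.05, and 0 did so in either direction, beside 1.5% of all 1265 tested regions (4.86% of the 391 in 4 to 7 animals) more often after sevoflurane and 0% more often in controls. The median difference, SEV minus Ctrl, was 16.7 percentage points in the 24 regions and 23.3 in all tested regions. As with genes, leaving out 1 animal gave calls: ARHGAP35 and RAB11FIP4 without D (beside 3.37% of all), AGAP2 and RAB13 without S1 (5.53%), RAB11FIP2 and RAPGEFL1 without S2 (3%), AGAP2, ARHGAP35 and RAB11FIP2 without S3 (5.16%), and RAB11FIP4, RAB13 and RAPGEFL1 without C3 (3.62%). None of these regions had an adjusted p under 0.05.

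Peaks of the set lay towards the 3′ end of their genes, measured along the gene with its introns. Of 168 placed peaks, 89 (53.0%) lay in the last 20% of the gene, against 37.3% of all placed peaks, and 25% lay in the first 20%, much like all placed peaks. The share in the last 20% exceeded that of all peaks in each of the 11 animals, and it was 49.9% on average in SEV and 58.9% in Ctrl animals. Much of this came from a few sites seen in many animals. With each region counted once, 40.2% of the set's regions lay in the last 20%, against 36.3% of all regions. The roles differed: 85.4% of 41 RhoGAP peaks and 72.7% of 11 Arf GAP peaks lay in the last 20%, against 31.3% of 32 Rab GTPase peaks. By strand, the share was 61.6% of the set's plus-strand peaks and 35.7% of its minus-strand peaks, against 40.6% and 33.9% of all peaks.

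**Figure D5:**
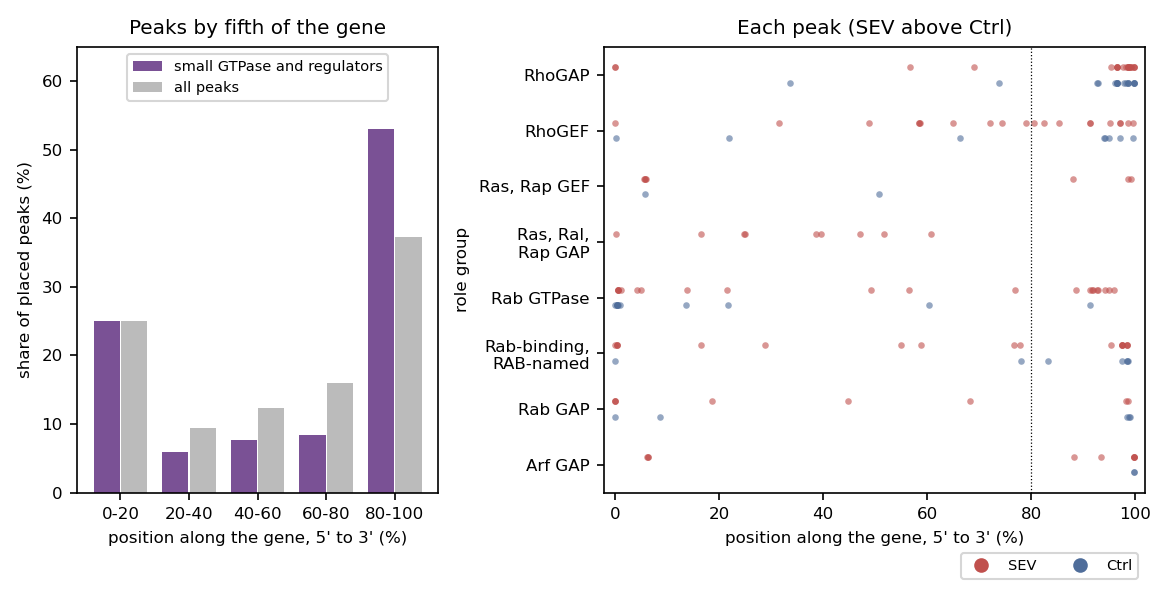
Left, the share of placed peaks in each 20% of the gene from 5′ to 3′, for the set and for all peaks; the set reaches 53.0% in the last 20%, against 37.3%. Right, the position of each peak by role, SEV above Ctrl, with a dotted line at 80%; RhoGAP points gather at the 3′ end and Ras, Ral and Rap GAP points stay left of the line.

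By strength, the set was ordinary within its lists. The median percentile of its peaks was 53.4, beside 50.3 for all peaks, and 9.47% of its peaks stood above the 90th percentile, beside 9.78% of all. By animal the median percentile was 51.7 to 58.8 in SEV animals and 28.2 to 54.4 in Ctrl animals, and the groups overlapped through C2 and C3. The median peak covered 149 exonic bases, beside 150 over all peaks, and 33.1% spanned a splice junction, beside 35.9%.

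Other genes of the same pathways, named outside the symbol rule, gave counts in the same direction, as did most tested genes. Of 157 listed GTPases, GEFs, GAPs, dissociation inhibitors and effectors, 72 had a peak and 28 were tested. One gene, MYO9B, a myosin with a RhoGAP domain, had a p under 0.05, with a peak in 4 of 5 SEV and 0 of 6 Ctrl animals (Fisher's exact p = 0.0152, adjusted p = 0.606), beside 1.82% of all tested genes. Of the 28, 24 had a peak more often in SEV and 4 in Ctrl animals, and 83.2% of all tested genes were on the SEV side. The median difference was 26.7 percentage points, beside 23.3 for all tested genes. SEV animals had 23.6 ± 4.51 of the listed genes and Ctrl animals 12.2 ± 6.24, beside means of 1043 and 601 for all genes with a peak. Among the widespread ones were RAP1GAP2, which turns Rap off, in all 11 animals, and ABR, a Rac GAP, in 4 of 5 SEV and 6 of 6 Ctrl animals. VAV2, an exchange factor for Rac and RhoA, had a peak in 5 of 5 SEV and 4 of 6 Ctrl animals. Among the GTPases, ARF6, which acts in endocytic recycling, had one in 4 of 5 SEV and 2 of 6 Ctrl animals.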

How the data were processed

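Fragmented total RNA was immunoprecipitated with an m6A antibody, per the labels' protocols. Tools listed in the submitters' processing notes are HISAT2 2.1.0, StringTie, cutadapt and Trim Galore 0.5.0, with the build rheMac8. The peak caller is not given in the sources used here, and the 11 input libraries were not analysed here. Each deposited list gives, per the file headers, a p-value (at most 0.001), log10 p and log10 false discovery rate scores, and a fold enrichment (a ratio, at least 2.06) for each peak, all the authors' own. The deposited starts count from 0, so 1 was added.

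An animal's peak was assigned to the gene whose identifier, without version, stood in the peak's name column. Symbols came from the supplied macaque gene names (3235 of 3671) or the peak tables (251), and 185 stayed without one. RAB5A, RAB8A and TBC1D24 were named by the peak tables alone and ARHGAP21 and ARHGAP44 by the supplied names alone. RASA4B and TBC1D22A have LOC symbols in the peak tables. Positions placed the peak's genomic midpoint between the annotated gene's ends, introns included, so they are not positions along the transcript. The midpoint of a peak that spans a junction can lie in an intron. Midpoints outside the annotated gene were set to its nearer end. In the set, 1 peak, annotated to another gene, was not placed. Annotation classes such as UTR were not used.

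Fisher's exact test ran over all genes, or regions, with a peak in 2 to 9 animals, with Benjamini-Hochberg adjustment and a threshold of 0.05, in Python 3.11.15 with scipy 1.17.1. The tests were tested on simulated data. The members and lists were chosen with earlier results of these data known. Values in every animal are given for genes with a Fisher p under 0.05, genes in at least 9 animals and, in each role group, up to 4 genes that differ most between the groups in the share of animals, ties by more animals and then by symbol. Others are named with the animals that have them, and ARHGAP44, RAB5A, RAB11FIP3, ARHGEF40, RASAL1, MYO9B and the other genes outside the symbol rule were given values after these were seen. Alternatives were a peak p-value of at most 1e-05, lists of equal length, an odds factor per animal, the annotated gene, no filter on animals, strata by sex, naming style and animal number, 50% reciprocal overlap, and each animal left out. Same-numbered animals did not deviate together (correlations 0.0628, 0.000159 and 0.0234). Some genes of the set or of the listed pathways are not reported by name here.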

Additional observations from a re-analysis of the deposited data

Results flagged for a closer look

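The list of the control C3 held 1210 peaks in 1050 genes, far from the other 5 controls, which had 452 to 703 peaks in 407 to 642 genes. Both values exceeded Dixon's 95% critical value for a group of 6, which chance exceeds in about 1 in 20 groups. Several measures were checked in this way, at both ends of each group. C3 also held 17 genes of the set, against 4 to 9 in the other controls. That count stayed under the critical value (Dixon's ratio 0.615, critical 0.625). C3 was the sole control with peaks in RAB11FIP4, RAB13 and RAPGEFL1. Its share of the set, 1.62% of its genes with a peak, lay close to the 1.61% of B.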

How the results depend on the processing

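The counts of 0 genes and 0 regions of the set with a Fisher p under 0.05, in either direction, also came out under the stricter peak p-value, equal lists, no filter on animals and, for regions, 50% reciprocal overlap, and for genes under the odds factor, the annotated gene and strata by sex and naming style. With the animal number as a replicate block they were again 0 of 33 genes and 0 of 24 regions; the numbers pair no animals, and all-gene calls were 19 instead of 27. Over all genes, calls on the SEV side were 10 under the stricter p-value and 4 with equal lists. Leaving out 1 animal gave 0 to 3 called genes and 0 to 3 called regions on the SEV side and 0 on the Ctrl side. The difference in mean number of genes, 12.5, became 6.50 under the stricter p-value and 2.53 with equal lists, where fewer peaks are kept, and was 11.4 to 14.2 with 1 animal left out. The difference in mean share, 0.677 percentage points, was 0.579 to 0.755. The mean share of peaks in the last 20% of the gene, 54.8% over animals, was 64.8% for plus-strand and 35.4% for minus-strand genes, and the cause was not tested; it was 53.0 to 56.0% with 1 animal left out. List length, chosen for repetition after seeing the data, differed by 0.80 to 1.12 on the log2 scale with 1 animal left out (p 0.00794 to 0.0333, exact permutation). Among single tested genes, 533 of the repeated tests kept side and direction, 42 came out equal between the groups, 12 gained a p under 0.05 and 18 changed direction; of these 18 none was called. Direction changed at an exact p = 1 under the stricter p-value for TBC1D10B, RAB21 and ARHGEF1 and at p = 0.455 for RAB8A, and at p = 1 with equal lists for RAB8A and ARHGAP5. With the odds factor it changed at an exact p = 0.564 for RAB8A, 0.576 for RAB11FIP3 and 1 for TBC1D22A, RAB21, ARHGAP44 and ARHGAP5. With 1 animal left out it changed at an exact p = 1 for RAB8A (F or S3), RAB5A (S1 or S3), and TBC1D22A and ARHGAP5 (S2). Depth is unknown, and the number of animals limits the precision.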

Other observations

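Many peaks of one list shared both their fold enrichment and their p-value with another peak of that list. In S1, 32 peaks had a fold of 35.9 and a p-value of 1.3e-05, among them those of RAPGEFL1, ARHGEF4 and ARHGAP42. In F, 20 peaks shared the 25-fold of RAPGEF6, and in D 14 shared the 13.2-fold of RAPGEFL1. Of the set's peaks at 25-fold or more, 14 of 24 (58.3%) had such a double, beside 54.8% of all peaks at that level, while under 10-fold 21.1% of the set's peaks had one. The 38.6-fold of RAPGEFL1 in F and the 83.7-fold of RAB11FIP2 in S1 had no such double.

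The RAB11FIP2, RAB5A and RAB21 peaks shared between animals stood at the 5′ end of their genes, with fold medians of 39.6, 18.9 and 15.1. Those of RAB11FIP3 and RAB11FIP4 stood near the 3′ end, with fold medians of 20.5 and 5.55. The region of RAB11FIP5 shared by S2 and C3 lay at 78.1% of the gene. Members of the RAB11FIP family therefore differed in where their shared peak lay, which is a description of these sites and was not tested.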
